A study of Homo sapiens with 12 samples.

Results

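The 44 genes described here act in DNA replication and in mitosis: 17 belong to S phase, the period in which the genome is copied, and 27 to mitosis. They were found by gene name in the deposited expression table, which lists 58676 genes, and all 44 had a row. A gene was tested when its mean FPKM (fragments assigned to a gene, scaled by its length and by the library's depth) over the 12 libraries was at least 1. This left 12194 genes, among them 16 of the 17 S-phase genes and 25 of the 27 mitotic genes. The values come from RNA sequencing of A549, an established human lung adenocarcinoma cell line. A control line, whose genotype is given as Control1, was compared with 2 lines, KO1 and KO2, that carry a knockout of NFE2L1, a transcription factor that acts on proteasome genes. Each line was given DMSO as vehicle or the proteasome inhibitor bortezomib at 200 nM, and all cells were taken after 4 h. The 6 groups have 2 libraries each.

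No other allele or agent is given in the labels for these groups. Each knockout is a single line, and the control is a single line, so that a difference between genotypes and a difference between lines cannot be told apart within 1 knockout line. The labels do not say whether the 2 libraries of a group came from separate cultures, and p-values therefore measure the spread between these libraries, which may be technical. In each KO group the titles mark 1 library as R1 and the other as R2, and in each control group 1 library is unnumbered and the other is R2. The unnumbered or R1 library is called the first library below, and wherever 2 values are given for a group the first library comes before R2. The libraries are bulk samples, so fewer cells in a phase of the cell cycle and less RNA per cell cannot be told apart.

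Transcription of replication genes is switched on at the border of G1 and S phase by the E2F factors, once cyclin-dependent kinases have freed them from the RB family. Mitotic genes follow in late S phase and G2, when the MuvB complex with B-MYB and FOXM1 acts on a promoter element called CHR, often together with CCAAT boxes bound by NF-Y. In resting cells and after p53 has induced the kinase inhibitor p21, the same MuvB core joins p130 and E2F4 in the DREAM complex and represses both groups. The proteasome destroys cyclins, geminin and securin at fixed points of the cycle, and inhibitors of the proteasome are known to stop proliferating cells.

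The promoters of 6 genes are shown because they stand for the 2 regulatory classes: 3 mitotic genes with large differences after bortezomib and 3 S-phase genes, of which MCM6 was lower and CDC45 and CDT1 were not. The genes were chosen after their values were seen. Each sequence is the 250 bases before the RefSeq start on GRCh38.p14, 5′ to 3′ on the gene's own strand. Capitals mark, on either strand, the CHR element (TTTGAA), the NF-Y box CCAAT, an E2F site (TTTCCCGC, TTTGGCGC, TTTCGCGC) and an antioxidant response element core (TGACNNNGC), the type of site that NFE2L1 binds.
PLK1 promoter, chr16:23678639-23678888, plus strand: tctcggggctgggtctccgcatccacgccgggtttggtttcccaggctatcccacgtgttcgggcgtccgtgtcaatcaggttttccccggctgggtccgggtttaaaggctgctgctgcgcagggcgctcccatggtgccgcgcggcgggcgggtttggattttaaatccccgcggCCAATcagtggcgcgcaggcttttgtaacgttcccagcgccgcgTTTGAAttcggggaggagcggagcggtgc
CDC20 promoter, chr1:43358731-43358980, plus strand: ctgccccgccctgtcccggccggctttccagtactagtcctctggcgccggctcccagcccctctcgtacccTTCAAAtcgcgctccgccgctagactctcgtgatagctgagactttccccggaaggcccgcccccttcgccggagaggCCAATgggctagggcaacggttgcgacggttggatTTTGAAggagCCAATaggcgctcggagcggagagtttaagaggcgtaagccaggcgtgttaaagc
MKI67 promoter, chr10:128126424-128126673, minus strand: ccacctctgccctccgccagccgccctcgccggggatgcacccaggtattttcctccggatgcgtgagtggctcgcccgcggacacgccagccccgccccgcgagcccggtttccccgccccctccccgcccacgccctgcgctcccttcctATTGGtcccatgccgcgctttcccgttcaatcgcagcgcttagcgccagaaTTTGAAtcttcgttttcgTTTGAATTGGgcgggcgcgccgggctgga
MCM6 promoter, chr2:135876444-135876693, minus strand: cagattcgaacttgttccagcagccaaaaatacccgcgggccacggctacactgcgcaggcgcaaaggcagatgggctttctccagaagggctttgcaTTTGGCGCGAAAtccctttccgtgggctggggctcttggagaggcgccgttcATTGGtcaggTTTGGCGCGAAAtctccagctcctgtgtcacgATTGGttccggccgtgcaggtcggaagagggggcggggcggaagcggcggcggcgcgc
CDC45 promoter, chr22:19479670-19479919, plus strand: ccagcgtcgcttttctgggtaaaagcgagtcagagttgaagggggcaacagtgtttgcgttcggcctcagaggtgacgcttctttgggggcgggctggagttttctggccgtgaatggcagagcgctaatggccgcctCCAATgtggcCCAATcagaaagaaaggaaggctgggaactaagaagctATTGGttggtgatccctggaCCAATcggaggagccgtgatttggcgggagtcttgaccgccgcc
CDT1 promoter, chr16:88803539-88803788, plus strand: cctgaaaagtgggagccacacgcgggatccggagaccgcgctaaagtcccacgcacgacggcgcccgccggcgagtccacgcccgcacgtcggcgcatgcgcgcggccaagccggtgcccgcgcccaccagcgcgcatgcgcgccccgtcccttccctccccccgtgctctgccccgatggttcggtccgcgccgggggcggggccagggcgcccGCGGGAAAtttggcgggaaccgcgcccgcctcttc

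In the deposited table, whose gene positions match GENCODE 29 on GRCh38, PLK1 (protein coding, as are all 6) spans chr16:23677656-23690367, CDC20 chr1:43358955-43363203, MKI67 chr10:128096659-128126385, MCM6 chr2:135839626-135876426, CDC45 chr22:19479459-19520612 and CDT1 chr16:88803213-88809258. The MKI67 and MCM6 windows lie outside these spans, the CDC20 window lies partly inside, and those of PLK1, CDC45 and CDT1 lie inside, where the table's gene starts upstream of the RefSeq start. The PLK1 window holds 1 CHR and 1 CCAAT, the CDC20 and MKI67 windows hold 2 of each, and none of these 3 holds an E2F site. The MCM6 window holds 4 E2F matches, which are 2 overlapping pairs, and 2 CCAAT boxes. CDC45 holds 4 CCAAT boxes, and CDT1 holds 1 E2F site and no CCAAT. Only the exact E2F strings were counted, and the similar letters tttggcggg in the CDC45 and CDT1 windows were not. None of the 6 windows holds the antioxidant response element core. RefSeq promoters were matched for 37 of the 44 genes, 14 of S phase and 23 of mitosis. Promoters of TPX2, MCM5, MCM4, CCNE2, BIRC5, AURKA and TTK were not matched. A CHR occurred in 14 of 23 mitotic promoters (60.9%) and in 1 of 14 S-phase promoters (7.14%), against 13.6% of all 27305 promoters of the table. E2F sites had the opposite distribution, with 7 of 14 S-phase promoters, 2 of 23 mitotic promoters (8.7%) and 2.38% of all promoters. A CCAAT was found in 82.6% of the mitotic, 64.3% of the S-phase and 33.0% of all promoters, and CHR together with CCAAT in 52.2%, 7.14% and 4.85%. The antioxidant response element core was found in 3 of 23 mitotic, 4 of 14 S-phase and 3013 of all 27305 promoters. Each motif was counted on its own, whether or not its match overlapped another. These are matches of letters and say nothing of whether a factor binds.

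Sequencing depth was 13211608 to 23819258 reads assigned to genes per library, recovered from the FPKM as whole reads. The tested S-phase and mitotic genes had at least 111 reads in every library. NFE2L1 itself had an FPKM of 72.7 and 151 in control cells with vehicle, 8.45 and 14.8 in KO1 and 18.6 and 33.6 in KO2, so the library labels and the targeted gene go the same way. The share of reads from mitochondrial genes was 5.44% to 6.80% in the 6 first libraries and 12.3% to 19.3% in the 6 R2 libraries. Of 5 epithelial markers all passed the filter, with a summed FPKM of 509 to 1801. Alveolar type II (3 genes), immune (4) and endothelial (3) markers had summed FPKM of at most 0.240, with SFTPA1 at 0 everywhere. A549 is an alveolar carcinoma line, and SFTPC and SFTPB were at or near 0 as well, so the markers of alveolar type II cells were absent here. Of 4 fibroblast markers only COL1A1 passed, with a summed FPKM of 1.58 to 5.67 in vehicle and 6.25 to 23.5 in bortezomib libraries. COL3A1, DCN and PDGFRA did not pass. The part of COL1A1-expressing cells in the results below was not tested.

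Mitotic genes were lower after 4 h of bortezomib in all 3 lines. All 25 tested genes were lower in both suffix pairs of every line, against 39% (control line), 36.6% (KO1) and 40.3% (KO2) of all genes. A suffix pair is bortezomib R2 against vehicle R2, or the first library against the first library. Median log2 fold changes of -1.59 (control line), -1.04 (KO1) and -1.47 (KO2) were found, while the median over all tested genes was -0.01, 0.00 and -0.02. These were limma fits of log2(FPKM + 1) over all 12 libraries, and a gene was called at a Benjamini-Hochberg adjusted p under 0.05 over all tested genes. Without a replicate term the fit called 2, 1 and 2 of the 25 genes lower, against 0.238%, 0.082% and 0.148% of all genes. With the replicate number as a block it called 25, 24 and 25 lower, against 16.4%, 13.8% and 14.4% of all genes. The block takes out only the part of the difference between R2 and first libraries that vehicle and bortezomib groups share. Over all tested genes that difference (R2 minus first) was correlated between groups at 0.70 to 0.89. Its size in the S-phase and mitotic genes varied between treatments, as given with the R2 comparison below. CENPA in KO1 was the gene not called (adjusted p = 0.103). Both bortezomib libraries lay below both vehicle libraries for 25, 19 and 25 of the 25 genes, against 17.4%, 16.1% and 19.2% of all genes. Within the suffix pairs the median differences were -1.68 (first) and -1.51 (R2) in the control line, -1.17 and -0.91 in KO1, and -1.56 and -1.31 in KO2.

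**Figure D1:**
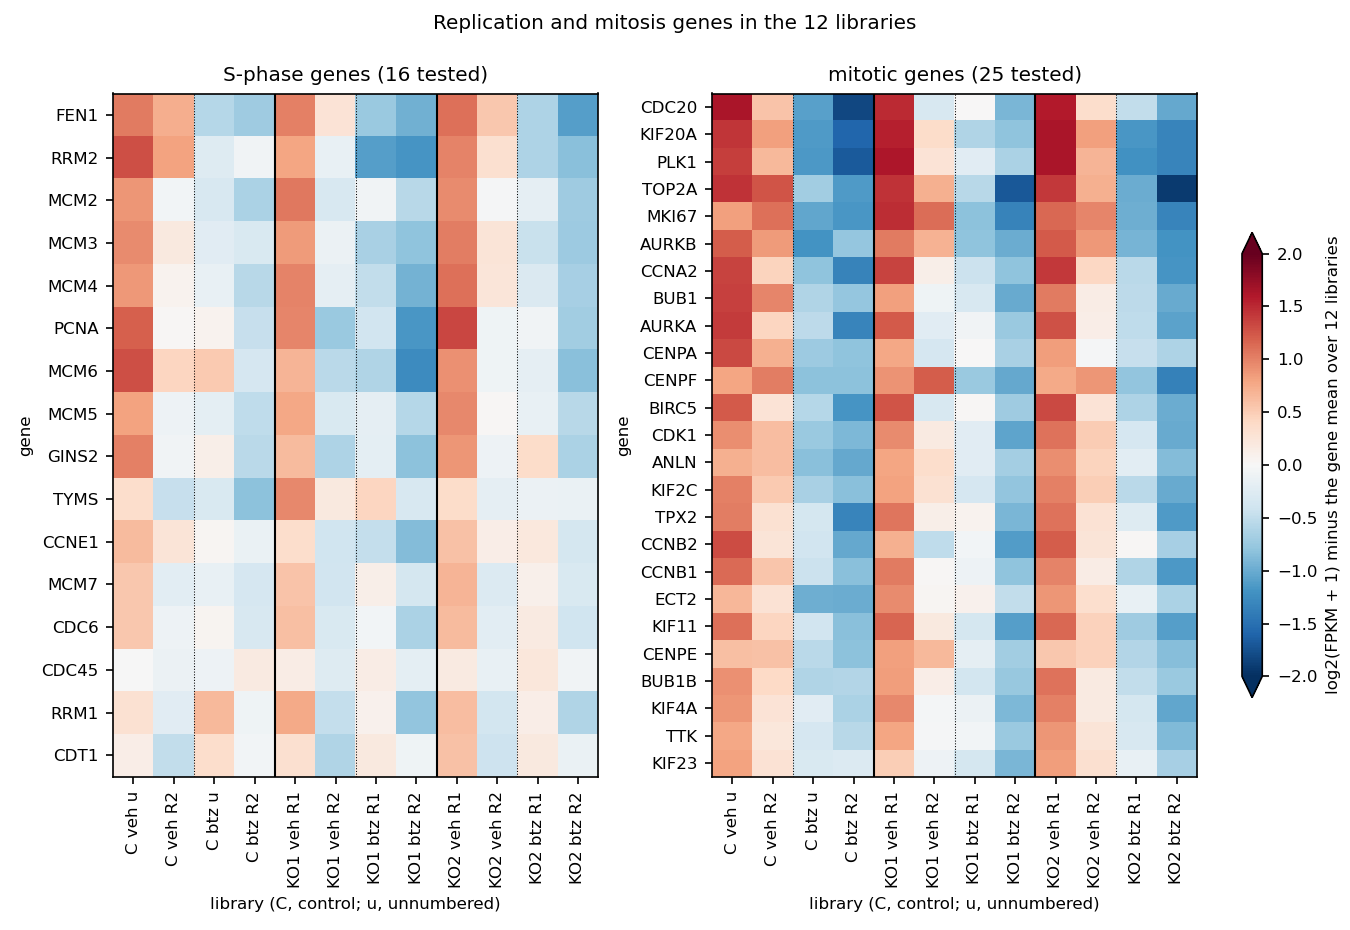
Values of log2(FPKM + 1) minus each gene's mean over the 12 libraries, for the 16 S-phase genes (left) and the 25 mitotic genes (right) that were tested. Columns are libraries (C, control line; veh, vehicle; btz, bortezomib; u, unnumbered), solid lines part the 3 lines and dotted lines part the treatments. Bortezomib columns are blue for nearly all mitotic genes, and within each group the R2 column is mostly bluer than the first.

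MKI67, which encodes the proliferation marker Ki-67 that coats mitotic chromosomes, had an FPKM of 36.1 and 44.02 with vehicle and 9.19 and 8.34 with bortezomib in the control line. In KO1 it was 57.4 and 44.7 with vehicle and 10.8 and 7.29 with bortezomib, and in KO2 45.3 and 40.4 and then 9.67 and 7.37. All 6 bortezomib libraries were below all 6 vehicle libraries. It was called without the block in all 3 lines, with log2 fold changes of -2.07 ± 0.34 (SE, adjusted p = 0.0405, limma) for the control line, -2.38 for KO1 (0.0244) and -2.21 for KO2 (0.0319). In the control line that call was lost when any 1 of the 12 libraries was left out, and with a common FPKM sum the fit without the block called none of the mitotic genes in any line. TOP2A, the topoisomerase that untangles sister chromatids, had the highest FPKM of the mitotic genes. It stood at 185.5 and 161.7 in control vehicle libraries and 41.4 and 30.1 with bortezomib, at 185.3 and 110.8 and then 45.4 and 20.0 in KO1, and at 181.8 and 110.2 and then 33.2 and 17.1 in KO2. The log2 fold changes were -2.26, -2.21 and -2.52, and the gene was called with the block (adjusted p = 7.5e-05 in the control line) but not without it (0.115).

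The cyclins and their kinase fell together in the fit with the block. CCNB1, cyclin B1, which starts mitosis with CDK1, had an FPKM of 112 and 74.4 in control vehicle libraries and 37.3 and 27.7 with bortezomib. In KO1 the values were 104.8 and 51.3 with vehicle and 47.1 and 28.6 with bortezomib, and in KO2 100.9 and 56.2 and then 32.9 and 22.3. The groups did not overlap within a line, and the log2 fold changes were -1.48, -0.98 and -1.44. CCNA2, cyclin A2 of S phase and G2, changed by -1.96, -1.35 and -1.77 on the log2 scale. CDK1 changed by -1.59, -1.20 and -1.47. CCNB2, cyclin B2, changed by -1.49, -0.69 and -1.06, and in KO1 its bortezomib libraries (16.4 and 7.34) overlapped the vehicle libraries (28.6 and 11.7).

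The largest differences in the control line were those of CDC20, KIF20A and PLK1. CDC20, which activates the anaphase-promoting complex, had an FPKM of 101.2 and 48.0 in control vehicle libraries and 14.4 and 8.31 with bortezomib. In KO1 the values were 91.8 and 25.3 and then 32.2 and 16.4, and in KO2 97.7 and 41.07 and then 22.4 and 15.2. With bortezomib both libraries of each KO line lay above both of the control line, and in KO1 the vehicle and bortezomib libraries overlapped. In the fit with the block the difference was -2.56 ± 0.26 (log2, SE, adjusted p = 0.000285) for the control line, -1.04 for KO1 (0.0183) and -1.73 for KO2 (0.00198). PLK1, a kinase of centrosome maturation and spindle assembly, had 35.0 and 20.5 and then 5.23 and 3.27 in the control line, 41.2 and 15.6 and then 10.7 and 7.85 in KO1, and 41.6 and 20.9 and then 4.97 and 4.49 in KO2. Its log2 fold changes were -2.43, -1.38 and -2.42, with no overlap in any line. KIF20A, a kinesin of the central spindle, had 26.9 and 17.2 and then 3.72 and 2.44 in the control line, 29.5 and 12.4 and then 5.81 and 4.93 in KO1, and 31.2 and 17.2 and then 3.65 and 3.13 in KO2. Its log2 fold changes were -2.48, -1.67 and -2.47, and bortezomib means were 14.0%, 25.6% and 14.0% of vehicle means.

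The remaining kinases and checkpoint genes fell as well with the block. AURKB, the kinase of the chromosomal passenger complex, was called without the block in the control line (log2 fold change -2.01, adjusted p = 0.0478) and in KO2 (-2.11, 0.0443), but not in KO1 (-1.76, 0.0910), and in no line with a common FPKM sum. BIRC5, survivin of the same complex, changed by -1.63, -0.82 and -1.60, and AURKA, the centrosome kinase, by -1.83, -0.91 and -1.49. BUB1, a kinase of the spindle checkpoint, had 24.9 and 18.8 and then 5.62 and 4.87 in the control line, 16.7 and 8.44 and then 7.07 and 4.02 in KO1, and 19.7 and 10.1 and then 6.03 and 3.99 in KO2. BUB1B, a checkpoint inhibitor of CDC20, changed by -1.25, -1.04 and -1.25. TTK, the checkpoint kinase MPS1, had one of the smallest differences in the control line, with 10.2 and 6.69 and then 4.22 and 3.49 there, 10.3 and 5.47 and then 5.29 and 2.94 in KO1, and 11.1 and 6.83 and then 4.26 and 2.55 in KO2. Its log2 fold changes were -0.94, -0.78 and -1.17.

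Among the centromere genes, CENPA, the centromeric histone, had an FPKM of 26.0 and 16.7 and then 5.52 and 5.20 in the control line, 17.4 and 7.58 and then 9.89 and 5.93 in KO1, and 18.4 and 9.69 and then 6.85 and 6.05 in KO2. The log2 fold changes were -1.78, -0.53 and -0.95. CENPF, a kinetochore protein, had 30.9 and 36.8 and then 9.44 and 9.44 in the control line, 33.7 and 42.0 and then 10.0 and 8.10 in KO1, and 30.3 and 33.0 and then 9.68 and 6.28 in KO2, with log2 fold changes of -1.73, -1.95 and -1.89. CENPE, the kinetochore kinesin, changed by -1.28, -1.18 and -1.22.

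Of the spindle motors and cytokinesis genes, KIF11, the motor that separates the spindle poles, had 38.9 and 24.0 and then 13.3 and 9.47 in the control line, 41.02 and 20.4 and then 13.6 and 7.72 in KO1, and 40.2 and 24.7 and then 10.4 and 7.68 in KO2. Its log2 fold changes were -1.37, -1.41 and -1.71. The smallest difference in the control line was that of KIF23, a kinesin of the midbody, with 35.5 and 24.6 and then 15.9 and 16.3 there, 28.5 and 18.4 and then 15.3 and 10.0 in KO1, and 36.3 and 25.1 and then 17.7 and 12.2 in KO2. Its log2 fold changes were -0.84, -0.83 and -0.99, and it was called with the block in each line. KIF4A, a chromosome-bound kinesin, had 24.3 and 15.4 and then 10.6 and 7.83 in the control line, 25.7 and 12.3 and then 11.5 and 6.33 in KO1, and 26.5 and 14.4 and then 9.68 and 5.61 in KO2. KIF2C, which takes microtubules apart, changed by -1.51, -1.12 and -1.52, and TPX2, which activates AURKA on the spindle, by -1.50, -1.01 and -1.38. ANLN, the scaffold protein anillin of the cleavage furrow, changed by -1.59, -1.02 and -1.23, and ECT2, the exchange factor that activates RHOA there, by -1.45, -0.70 and -0.998.

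NUSAP1 and PRC1, a spindle protein and a bundler of central spindle microtubules, were not tested because their mean FPKM was 0.366 and 0.202. NUSAP1 had at most 55 reads and PRC1 at most 46 in a library, while the other mitotic genes reached from 1110 to 28444. Both overlap other annotated genes on the same strand, and reads in such overlaps may have been left uncounted, so their values are uncertain. The same holds to an unknown degree for MCM7, PCNA, RRM2, FEN1, TOP2A, CCNB2, BUB1B, CENPA and KIF4A, which overlap a gene on the same strand, and for 19 of the 44 that overlap one on the opposite strand, since the strand setting is not given in the sources used here.

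**Figure D2:**
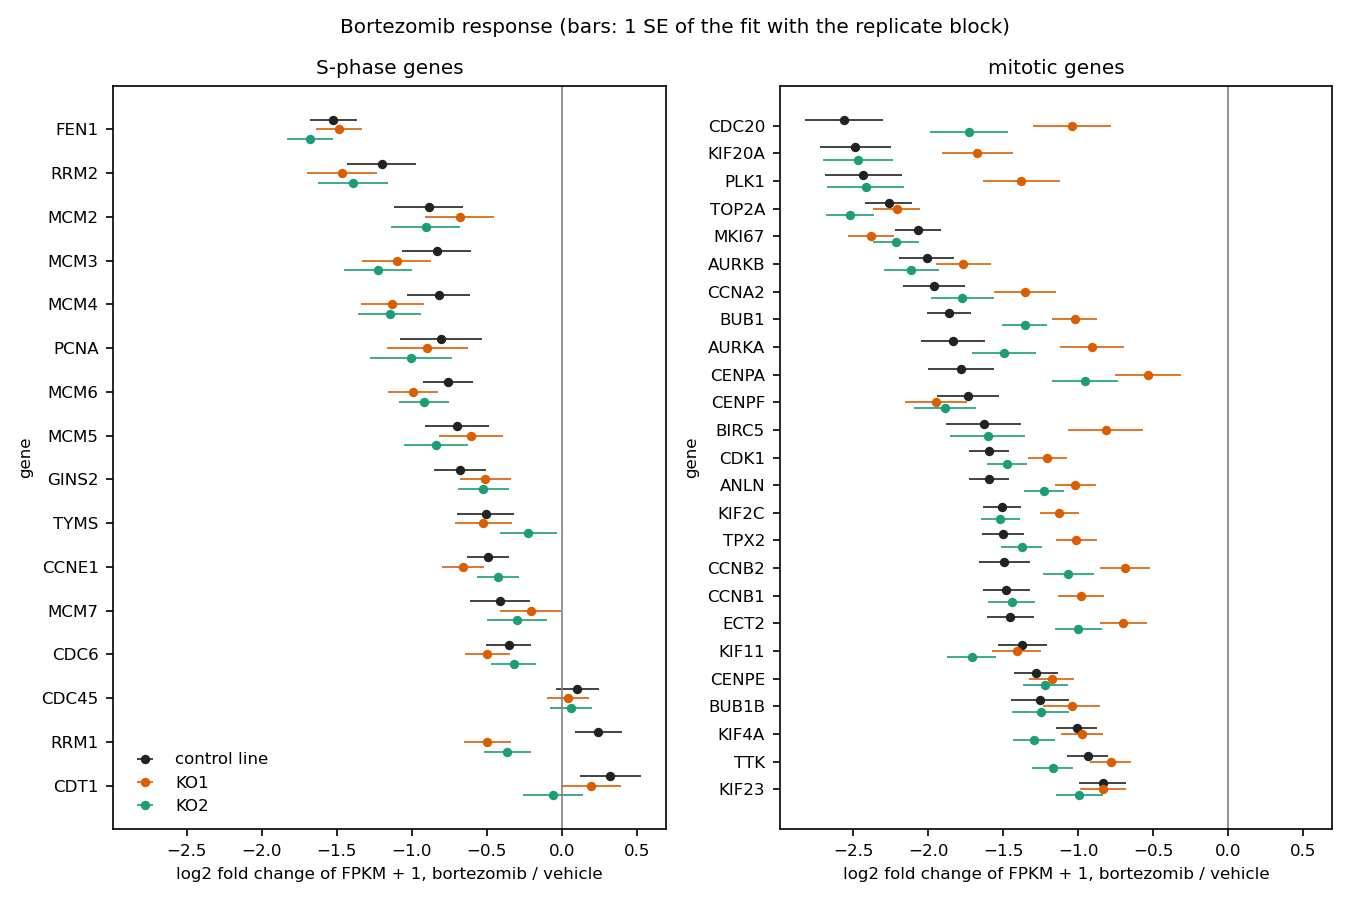
Log2 fold change of FPKM + 1, bortezomib over vehicle, for each tested S-phase gene (left) and mitotic gene (right) in the control line, KO1 and KO2, with bars of 1 SE from the fit with the replicate block (2 libraries per group). All mitotic genes lie below 0, from -2.56 for CDC20 to -0.84 for KIF23 in the control line, while the S-phase genes reach from -1.52 for FEN1 to 0.32 for CDT1.

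S-phase genes were lower by a smaller amount and less uniformly. Medians after bortezomib were -0.69 (control line), -0.63 (KO1) and -0.68 (KO2) on the log2 scale. They were -1.17, -1.14 and -1.16 when vehicle R2 of the same line was left out, and -0.23, -0.056 and -0.25 without its other vehicle library. Without bortezomib R2 they were -0.38, -0.43 and -0.40, and -0.86, -0.91 and -1.03 without the other bortezomib library. In each line 13 of the 16 genes were lower in both suffix pairs, against 39%, 36.6% and 40.3% of all genes. The limma fit without a block called 0 of 16 in each line, with 2, 3 and 3 genes at an unadjusted p under 0.05, and voom in limma on the recovered reads called 0 as well. With the block, limma called 10, 9 and 8 of 16 lower and none higher, against 16.4%, 13.8% and 14.4% of all genes lower. Voom with the block called 11, 12 and 9. Shares of all genes called by voom, or at an unadjusted p under 0.05, are not given here. Both bortezomib libraries lay below both vehicle libraries for 7, 6 and 7 genes, against 17.4%, 16.1% and 19.2% of all genes. The limma counts of 10, 9 and 8 are from the block by title suffix, which was not refitted without single libraries. In a block where unnumbered and R1 libraries shared a level, limma called 10, 11 and 9 lower. Calls with that block depended on single libraries, and in each line fewer genes were called without some of them. The median differences within the pairs were -0.82 (first) and -0.44 (R2) in the control line, -0.89 and -0.37 in KO1, and -0.84 and -0.55 in KO2.

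FEN1, the nuclease that trims Okazaki fragments, had the largest difference of the S-phase genes in the control line. Its FPKM was 46.1 and 37.3 with vehicle and 14.6 and 13.1 with bortezomib there, 45.2 and 26.8 and then 12.8 and 10.9 in KO1, and 48.3 and 32.6 and then 14.1 and 9.79 in KO2. The groups did not overlap, and the log2 fold changes were -1.52 ± 0.15 (SE, fit with the block, adjusted p = 0.000284), -1.49 and -1.68. PCNA, the sliding clamp of the replication fork, had the highest mean FPKM of all 44 genes, at 108. It had 214.1 and 93.9 and then 97.0 and 67.2 in the control line, 184.6 and 55.3 and then 70.8 and 41.1 in KO1, and 235.6 and 87.2 and then 88.6 and 56.9 in KO2. R2 vehicle libraries were below the first bortezomib libraries in all 3 lines, so that the groups overlapped. With the block PCNA was called lower in each line, with log2 fold changes of -0.81, -0.89 and -1.004 (adjusted p = 0.0490, 0.0377 and 0.0258).

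The MCM genes encode the 6 subunits of the replicative helicase. MCM2 had 21.9 and 11.0 and then 9.04 and 7.01 in the control line, 24.8 and 8.99 and then 10.8 and 7.47 in KO1, and 23.0 and 11.3 and then 10.1 and 6.61 in KO2, with log2 fold changes of -0.89, -0.68 and -0.91. With the block it was called in the control line (adjusted p = 0.0183) and KO2 (0.0202), but not in KO1 (0.0550). MCM3 had 45.5 and 26.8 and then 19.7 and 18.7 in the control line, 42.7 and 21.4 and then 14.4 and 12.8 in KO1, and 48.3 and 28.1 and then 16.9 and 13.7 in KO2. MCM4 had 50.8 and 28.8 and then 24.6 and 18.3 in the control line, 55.8 and 24.0 and then 19.2 and 13.7 in KO1, and 60.2 and 32.4 and then 22.3 and 16.9 in KO2. Neither MCM3 nor MCM4 overlapped between treatments, and both were called with the block in each line, with log2 fold changes of -0.83, -1.10 and -1.22 for MCM3 and of -0.82, -1.13 and -1.15 for MCM4. MCM6 had 44.9 and 24.2 and then 26.0 and 14.0 in the control line, 28.97 and 11.9 and then 11.4 and 6.87 in KO1, and 34.6 and 16.6 and then 15.6 and 9.57 in KO2, with log2 fold changes of -0.76, -0.99 and -0.92. MCM5 changed by -0.70, -0.61 and -0.84 and was called in the control line and KO2. MCM7 was called in no line. It had 91.2 and 54.0 and then 56.1 and 49.2 in the control line, 92.8 and 47.5 and then 67.9 and 48.5 in KO1, and 100.6 and 51.2 and then 67.0 and 50.4 in KO2, so that its R2 libraries differed little between treatments.

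Among the licensing genes and their partners, CDT1 and CDC45 were called in no line. CDT1, which loads the MCM helicase and is itself destroyed in S phase, had an FPKM of 14.9 and 9.31 with vehicle and 17.4 and 12.9 with bortezomib in the control line. In KO1 it had 17.1 and 8.51 and then 15.6 and 12.7, and in KO2 20.7 and 9.93 and then 15.6 and 12.2. The log2 fold changes were 0.32 ± 0.20, 0.20 and -0.06 (adjusted p = 0.245, 0.497 and 0.861, limma with the block). CDT1 was higher with bortezomib in both control pairs and in the R2 pair of each KO line. In the first pair of each KO line it was lower. CDC45, a part of the active helicase, had 13.2 and 12.1 and then 12.3 and 15.2 in the control line, 14.7 and 10.9 and then 14.8 and 11.5 in KO1, and 15.2 and 11.9 and then 15.7 and 12.6 in KO2. It changed by 0.10, 0.04 and 0.06 on the log2 scale. CDC6, the loader that works with CDT1, had 22.3 and 13.9 and then 15.6 and 11.8 in the control line, 23.4 and 12.01 and then 14.4 and 9.35 in KO1, and 24.0 and 12.8 and then 17.1 and 11.2 in KO2. With the block it was called in KO1 (-0.50, adjusted p = 0.0365), but not in the control line (-0.35, 0.1002) or KO2 (-0.32, 0.145). GINS2, a subunit that joins CDC45 in the helicase, had 16.3 and 7.26 and then 8.36 and 4.95 in the control line, 12.3 and 4.60 and then 6.56 and 3.88 in KO1, and 14.9 and 7.01 and then 10.1 and 4.55 in KO2. It was called in the control line (-0.68, adjusted p = 0.0164), and the adjusted p was 0.0545 in KO1 and 0.0510 in KO2.

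CCNE1, cyclin E1, which drives entry into S phase, had an FPKM of 14.9 and 11.2 and then 9.53 and 8.31 in the control line, 12.1 and 6.76 and then 6.32 and 4.57 in KO1, and 14.3 and 10.2 and then 10.8 and 7.01 in KO2. It fell with the block in the control line (-0.49, adjusted p = 0.0266) and KO1 (-0.66, 0.00928), while in KO2 the difference was -0.43 (0.0506). CCNE2, cyclin E2, was not tested, with a mean FPKM of 0.946. It had 1.17 and 1.14 and then 0.905 and 0.797 in the control line, 1.54 and 1.04 and then 0.482 and 0.289 in KO1, and 1.20 and 1.299 and then 0.569 and 0.916 in KO2. Its 6 bortezomib libraries were all below its 6 vehicle libraries, on 24 to 122 reads per library.

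Of the nucleotide genes RRM2 was called lower in each line with the block, RRM1 in KO1 only and TYMS in none. RRM2, the regulated subunit of ribonucleotide reductase, had 28.7 and 20.3 and then 9.23 and 10.7 in the control line, 20.2 and 10.1 and then 4.72 and 4.39 in KO1, and 23.5 and 14.3 and then 6.95 and 5.85 in KO2, with log2 fold changes of -1.20, -1.46 and -1.39. RRM1, the large subunit of the same enzyme, had 35.7 and 24.5 with vehicle and 45.6 and 27.1 with bortezomib in the control line. In KO1 it had 49.6 and 20.5 and then 30.6 and 16.4, and in KO2 44.9 and 22.2 and then 31.7 and 18.7. It was higher in both control pairs and lower in all 4 KO pairs, with log2 fold changes of 0.24 (adjusted p = 0.264 with the block), -0.50 (0.0439) and -0.36 (0.118). TYMS, thymidylate synthase, had 6.65 and 3.31 and then 3.83 and 2.39 in the control line, 10.6 and 5.84 and then 7.02 and 3.80 in KO1, and 6.73 and 4.29 and then 4.53 and 4.43 in KO2, and was not called (adjusted p = 0.0699, 0.0696 and 0.420 with the block).

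**Figure D3:**
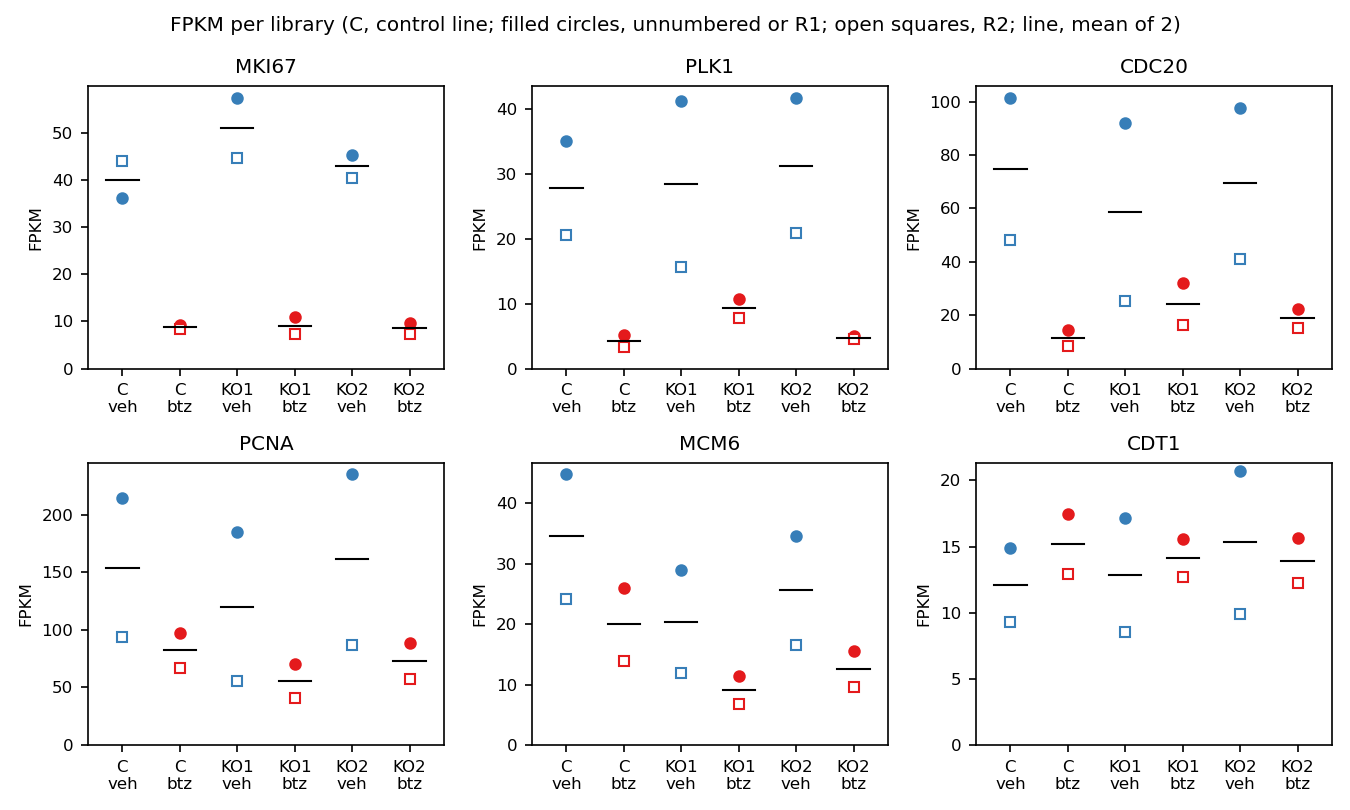
FPKM in each of the 12 libraries for 3 mitotic genes (MKI67, PLK1, CDC20) and 3 S-phase genes (PCNA, MCM6, CDT1). Filled circles are unnumbered or R1 libraries, open squares are R2 libraries, blue is vehicle, red is bortezomib and the line is the mean of 2. MKI67 separates by treatment alone, PCNA and MCM6 also by library, and CDT1 by library, with its R2 values higher with bortezomib than with vehicle in each line.

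Other genes of the same processes were set beside these, from lists that were also chosen with earlier results of these data known. Of 56 other mitosis genes the block fit called 49 (control line), 42 (KO1) and 49 (KO2) lower and none higher, with medians of -1.29, -0.92 and -1.20. Of all genes that fit called 16.4%, 13.8% and 14.4% lower and 16.1%, 13.9% and 12.7% higher. Without the block 8, 2 and 6 were called. KIFC1, a kinesin that focuses spindle poles, had 24.2 and 27.4 with vehicle and 3.34 and 2.81 with bortezomib in the control line, and log2 fold changes of -2.72 ± 0.14 (SE, adjusted p = 2.5e-05 with the block and 0.00347 without), -2.32 and -2.56. DLGAP5, a spindle protein, had log2 fold changes of -2.13, -1.32 and -1.90, and CCNF, cyclin F of a ubiquitin ligase, of -2.11, -1.98 and -2.07. The smallest called differences in the control line were those of SMC4 (-0.70), SGO1 (-0.59) and CENPM (-0.45).

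Of 46 other replication genes tested, 12, 18 and 21 were called lower and 2, 2 and 0 higher with the block, against 16.4%, 13.8% and 14.4% of all genes lower and 16.1%, 13.9% and 12.7% higher, with medians of -0.33, -0.38 and -0.50. Without it only CDC7 in KO2 was called (-1.49, adjusted p = 0.0404), a kinase that fires origins. UHRF1, which keeps DNA methylation through replication, had 28.6 and 15.9 and then 5.997 and 4.90 in the control line and log2 fold changes of -1.80, -1.74 and -1.79. ASF1B, a histone chaperone, changed by -1.71, -0.9997 and -1.46, and DUT, which clears dUTP, by -1.37, -0.97 and -0.97. ORC3 and ORC6, subunits of the origin recognition complex, rose in the control line with the block. ORC3 had 11.2 and 5.51 and then 20.6 and 14.0, and log2 fold changes of 1.01, 0.53 and 0.50 (not called in KO2, adjusted p = 0.0519). ORC6 had 13.4 and 11.7 and then 17.8 and 23.0, and changes of 0.65, 0.22 and 0.36, the last 2 not called (0.354 and 0.136).

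Of 34 cell cycle regulators tested, 13, 10 and 11 were called lower and 6, 5 and 4 higher with the block, against 16.4%, 13.8% and 14.4% of all genes lower and 16.1%, 13.9% and 12.7% higher. CDKN1A, the p53 target p21, had an FPKM of 33.3 and 11.9 with vehicle and 125.7 and 68.0 with bortezomib in the control line, 23.9 and 13.5 and then 111.6 and 79.7 in KO1, and 29.6 and 15.9 and then 123.2 and 94.0 in KO2. It rose by 2.15, 2.33 and 2.26 on the log2 scale (adjusted p = 0.000136, 0.000123 and 0.000112 with the block, and 0.148, 0.156 and 0.163 without). GADD45A, a stress-induced inhibitor of CDK1, changed by 2.06, 2.24 and 2.31, and BTG2, an antiproliferative p53 target, by 1.25, 1.44 and 1.32. LIN54, the DNA-binding subunit of MuvB, was called higher in the control line (1.29) but not in KO1 (0.32, adjusted p = 0.154 with the block) or KO2 (0.31, 0.164). The interaction of LIN54 for the mean of the KO lines, -0.97, was not called (adjusted p = 0.136 with the block). The largest falls were those of CDKN2C, the inhibitor p18 (-1.93, -2.04 and -2.25), E2F8, a repressor of E2F targets (-1.75, -1.49 and -1.48), and FBXO5, an inhibitor of the anaphase-promoting complex (-1.45, -1.44 and -1.34). The fit without the block called CDKN2C and E2F8 in the control line and CDKN2C in KO2. The part of these regulators in the lower mitotic and S-phase values was not tested.

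With vehicle, few of these genes were called between the knockout lines and the control line, and those called changed with the fit. Without the block limma and voom called 0 of 41 genes in KO1 and in KO2, 0 had an unadjusted p under 0.05 in limma, and 0.213% and 0.23% of all genes were called in limma. Medians were -0.10 (S phase) and -0.16 (mitosis) in KO1 and 0.04 and 0.02 in KO2, while all genes had medians of 0.02 and 0.06. With the block by title suffix they were -0.20 and -0.28 in KO1 and -0.10 and -0.14 in KO2, where 11 of 16 S-phase and 23 of 25 mitotic genes were below 0, and all genes had 0.03 and 0.08. Their sign without the block turned with the vehicle library left out. In KO1 they were -0.66 and -0.62 without KO1 vehicle R1 but 0.38 and 0.22 without its R2, and 0.22 and 0.08 without the unnumbered control library but -0.49 and -0.43 without its R2. In KO2 they were -0.37 and -0.35 without KO2 vehicle R1 but 0.44 and 0.37 without its R2, and 0.43 and 0.28 without the unnumbered control library but -0.31 and -0.27 without its R2. With the block by title suffix, BUB1 was lower in KO1 (-1.04 ± 0.17, adjusted p = 0.0105, limma) and in KO2 (-0.81, 0.0326), and MCM6 was lower in KO1 (-0.80 ± 0.20, 0.0474), against 2.85% and 2.25% of all genes called lower. That block has separate levels for R1, which no control group has, and for unnumbered libraries, which no KO group has, so that it compares a KO line with the control line within R2. When unnumbered and R1 libraries shared 1 level of the block, BUB1 (-0.81, adjusted p = 0.0265), MCM6 (-0.79, 0.0157) and CCNB2 (-0.69, 0.0304) were called in KO1, against 4.08% of all genes lower. In KO2 none of the 41 was called (2.16% of all genes lower), and BUB1 had -0.58 (adjusted p = 0.120). Voom with the block called MCM6, RRM2, CCNB2, BUB1 and CENPA lower and TYMS higher in KO1, and BUB1 lower in KO2. The share of all genes that voom called is not given. Leaving out 1 library was done with the shared level only, so the dependence of calls by title suffix on single libraries was not tested. With the shared level, the number of genes called in KO1 changed with the library left out.

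BUB1 had an FPKM of 24.9 and 18.8 in the control vehicle libraries, 16.7 and 8.44 in KO1 and 19.7 and 10.1 in KO2, and both KO1 libraries were below both control libraries. CENPA had the next lowest difference in KO1, with 26.0 and 16.7, then 17.4 and 7.58, then 18.4 and 9.69, and log2 differences of -0.80 in KO1 and -0.60 in KO2 without the block, not called in limma. CCNB2 had 43.95 and 20.8, then 28.6 and 11.7, then 41.2 and 20.8, so that the KO2 values were close to those of the control line. MCM6 had 44.9 and 24.2, then 28.97 and 11.9, then 34.6 and 16.6, and the 2 libraries of each group were farther apart than the group means. RRM2 had 28.7 and 20.3, then 20.2 and 10.1, then 23.5 and 14.3, with log2 differences of -0.71 in KO1 and -0.38 in KO2 and no call in either block. PCNA differed by -0.48 in KO1 with an SE of 0.72. TYMS went the other way in KO1, with 10.6 and 5.84 against 6.65 and 3.31 in the control line, a difference of 0.63 that was not called in limma (adjusted p = 0.104 with the block).

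The highest mitotic values in KO1 with vehicle were those of MKI67 (0.34), CENPF (0.15) and CENPE (0.14), and in KO2 those of ECT2 (0.14), PLK1 (0.13) and KIF20A (0.10), all log2 differences without the block and none called. CENPE had 8.55 and 8.44 in the control line, 10.1 and 8.88 in KO1 and 8.12 and 7.66 in KO2. ECT2 had 50.8 and 39.0 in the control line, 61.9 and 32.9 in KO1 and 59.8 and 40.2 in KO2. TOP2A was among the 3 lowest in KO2 at -0.29 without the block. In the other lists, CCND3, cyclin D3, fell in both KO lines with the block (-2.23, adjusted p = 0.000828, and -0.98, 0.0392). It had 37.1 and 24.98 with vehicle in the control line, 8.06 and 3.58 in KO1 and 16.5 and 12.3 in KO2. PKMYT1, an inhibitory kinase of CDK1, was called lower in both lines with the block by suffix (adjusted p = 0.0234 and 0.0476), but not in the other block (0.0848 and 0.209). HJURP, the chaperone of CENPA, fell in KO1 (-1.18, adjusted p = 0.0158), with 62.2 and 52.1 in the control line against 24.2 and 24.2 in KO1 and 48.7 and 42.4 in KO2. CDKN1B, the inhibitor p27, rose in KO2 (0.88, adjusted p = 0.0419). Between KO1 and KO2 with vehicle, limma called 0 of 41 genes with either block (3% and 2.48% of all genes) or without one (0.0656%). At an unadjusted p under 0.05 there were 0 without the block and 4 with the block by suffix. Voom with the block called CCNB2 (-0.67, adjusted p = 0.0247). Shares of all genes at that unadjusted p, or called by voom, are not given.

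With bortezomib, S-phase genes had a median difference of -0.25 between KO1 and the control line (-0.24 in the first pair and -0.34 in R2), against 0.05 over all genes. The limma fit without a block called 0 of 41 genes and 0.107% of all genes, with 1 S-phase gene at an unadjusted p under 0.05, and voom without a block called 0 of 41. Both blocks called the same 4 S-phase genes lower in KO1, CCNE1, MCM6, RRM1 and RRM2, against 3.92% (by suffix) and 6.54% (shared level) of all genes lower. With the block by suffix RRM2 differed by -1.14 (adjusted p = 0.0376), MCM6 by -1.04 (0.0164), RRM1 by -0.79 (0.0361) and CCNE1 by -0.76 (0.0266). MCM6 had 26.0 and 14.0 in the control line and 11.4 and 6.87 in KO1. With the shared level, fewer S-phase genes were called without either KO1 bortezomib library or without control bortezomib R2. Mitotic genes had a median difference of 0.18 in KO1 without the block, with 20 of 25 above 0, and of 0.05 with the block by suffix, with 14 of 25 above 0, against 0.05 and 0.06 over all genes. The median was 0.37 in the first pair and 0.04 in R2, and without the block it was -0.08 when KO1 bortezomib R1 was left out and 0.54 when KO1 bortezomib R2 was. It was 0.38 without the unnumbered control bortezomib library and 0.08 without its R2. The block by suffix called 0 of them, with 7 at an unadjusted p under 0.05. The share of all genes at that p is not given for these comparisons. The other block called CDC20 (1.002, adjusted p = 0.0309), PLK1 (0.98, 0.0288) and ECT2 (0.77, 0.0259) higher, against 6.3% of all genes higher. With the shared level, the number of mitotic genes called changed with the library left out. The block by suffix was not refitted in this way. Voom with the block called 5 mitotic genes higher in KO1, and the share of all genes it called is not given for KO1 or KO2. In KO2 the medians were -0.07 (S phase) and -0.02 (mitosis), and limma without a block called 0 of 41 (none at an unadjusted p under 0.05) and 0.0656% of all genes. TOP2A was called lower there with the block by suffix (-0.82, adjusted p = 0.0418, against 2.3% of all genes lower). It was not called with the other block (-0.54, 0.161, against 3.03%), and the call by suffix was not refitted without single libraries. With the other block, the genes called in KO2 changed without either KO1 vehicle library. Voom with the block called CDC20 and ECT2 higher and MCM6 lower in KO2.

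The difference in bortezomib response between the knockout lines and the control line was tested as an interaction, with the mean of KO1 and KO2 set against the control line. No tested gene was called in limma without the block (115 at an unadjusted p under 0.05) or with it (1305), so percent called was 0 in both. Of the 41 genes, 0 had an unadjusted p under 0.05 without the block and 8 with it, 1 of S phase and 7 of mitosis. The median interaction was 0.27 for mitotic genes, with 18 of 25 above 0, and -0.06 for S-phase genes, against 0.01 over all genes. With 1 library left out the mitotic median ranged from -0.05 (without the unnumbered control vehicle library) to 0.52 (without KO1 vehicle R1 or control vehicle R2), and the S-phase median from -0.42 (without the unnumbered control vehicle library) to 0.19 (without control vehicle R2). In KO1 alone the mitotic median was 0.49, with 22 of 25 genes above 0, and in KO2 it was 0.03 with 16 of 25. The KO1 value was 0.02 without KO1 vehicle R2, the vehicle library with the lowest summed FPKM of mitotic genes (646.5, against 735.8 to 1227 in the others). It was 0.15 without KO1 bortezomib R1 or the unnumbered control vehicle library, 0.32 without control bortezomib R2, and 0.80 and 0.79 without KO1 bortezomib R2 and vehicle R1. These comparisons share their libraries with those above.

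**Figure D4:**
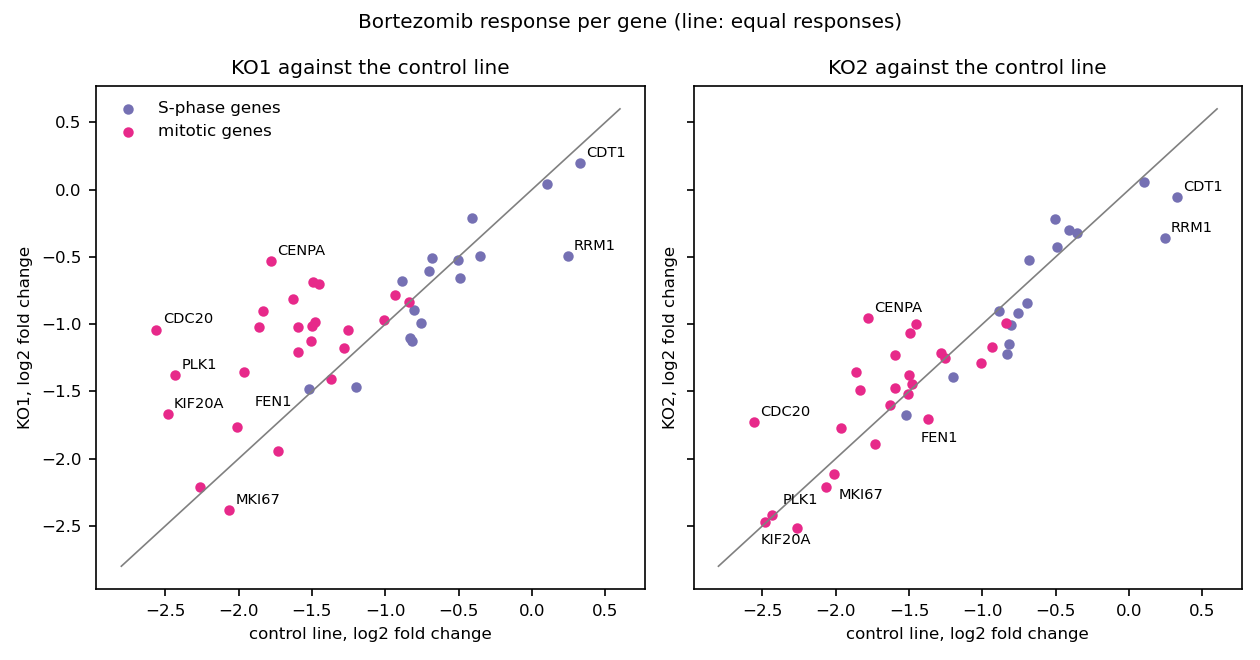
Log2 fold change after bortezomib in KO1 (left) and KO2 (right) against that in the control line, 1 point per tested gene. The line marks equal responses. In KO1 most mitotic genes lie above the line, with CDC20 at -1.04 against -2.56, and in KO2 they lie around it. RRM1 lies below it in both.

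CDC20 had the largest interaction, 1.18 with an adjusted p of 0.220 with the block, and its bortezomib mean was 15.2% (control line), 41.5% (KO1) and 27.1% (KO2) of the vehicle mean. Voom with the block on recovered reads called CDC20 (1.25 ± 0.28, adjusted p = 0.0432) as the 1 member among 73 genes. CENPA followed with 1.04 (adjusted p = 0.214 in limma with the block) and BUB1 with 0.67 (0.222). CENPA had bortezomib values of 5.52 and 5.20 in the control line, 9.89 and 5.93 in KO1 and 6.85 and 6.05 in KO2, and BUB1 had 5.62 and 4.87, 7.07 and 4.02, and 6.03 and 3.99. The lowest mitotic interactions were those of MKI67 (-0.23), KIF11 (-0.19) and CENPF (-0.18). Among S-phase genes, RRM1 (-0.67, adjusted p = 0.232), MCM3 (-0.33) and MCM4 (-0.32) were lowest, and GINS2 (0.16), MCM7 (0.16) and TYMS (0.13) were highest, none of them called in any limma fit.

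R2 libraries had lower values of these genes than the first libraries of the same groups. In the fit in which unnumbered and R1 libraries shared a level, 15 of 16 S-phase genes and 22 of 25 mitotic genes were called lower in R2, against 48.2% of all genes. The median log2 differences were -0.64 for S-phase genes and -0.58 for mitotic genes, against -0.21 over all genes. The median over all genes was -0.42 with all libraries scaled to a common FPKM sum, -0.11 with quantile normalization and -0.10 without mitochondrial genes. Relative to these the S-phase and mitotic medians (-0.89 and -0.81, -0.44 and -0.41, and -0.49 and -0.45) stayed lower. CDC45 in S phase and MKI67, AURKB and CENPF in mitosis were the genes not called. CDC20 (-1.05 ± 0.15) and PCNA (-1.04) differed most. In all 6 groups R2 was lower for 14 of 16 and 20 of 25 genes, against 44.2% of all genes. The median S-phase gene in R2 stood at 59.0%, 49.8% and 52.1% of the first library with vehicle (control line, KO1, KO2). With bortezomib it stood at 76.6%, 71.5% and 71.6%. The median mitotic gene stood at 66.4%, 51.3% and 56.7% with vehicle and at 77.6%, 61.25% and 67.7% with bortezomib. A block does not take out this difference between treatments. What the suffix stands for is not given in the sources used here, and the mitochondrial share of reads, 12.3% to 19.3% in R2 and 5.44% to 6.80% in the others, moved with it. The part of either in these values was not tested.

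**Figure D5:**
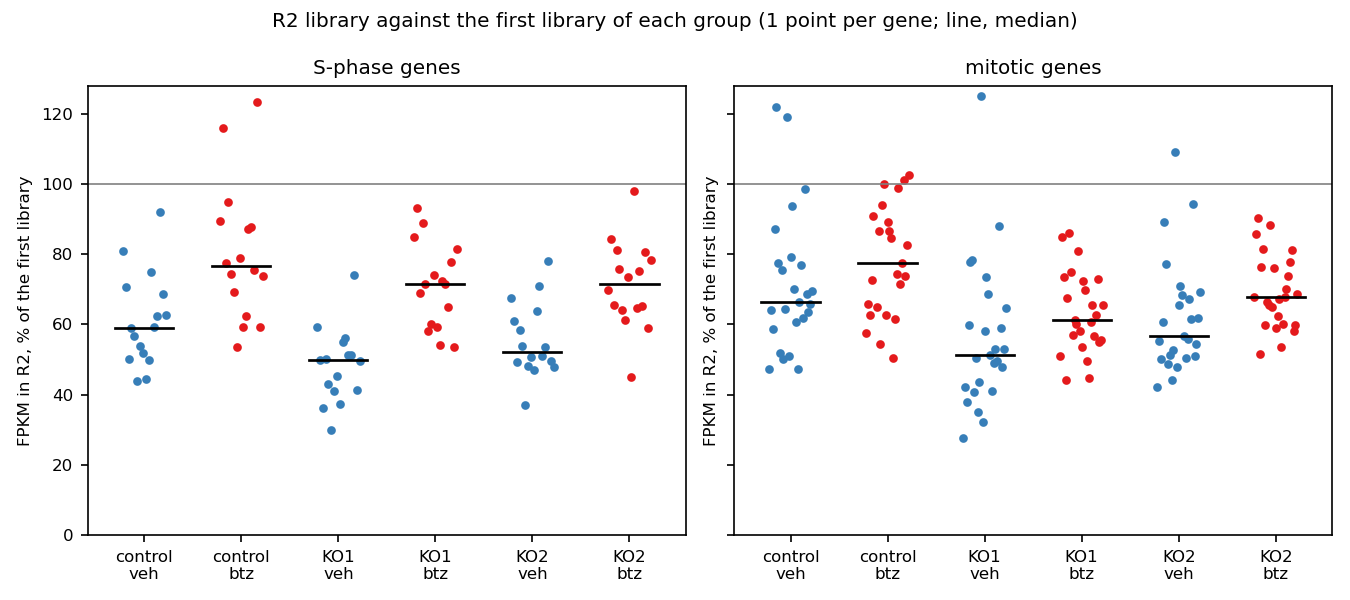
FPKM in the R2 library as a percentage of the first library of the same group, 1 point per tested gene, for S-phase genes (left) and mitotic genes (right). Blue is vehicle, red is bortezomib and the line is the median of the genes, which lies between 49.8% and 77.6% in the 6 groups.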

How the data were processed

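RNA was sequenced from 12 libraries of 3 A549 lines. Per the submitters' processing notes, the authors used CASAVA, STAR 2.5, HTSeq 0.6.1, DESeq2 and hg19, whereas the gene positions of the deposited table match GENCODE 29 on GRCh38 for 95.3% of its 58676 identifiers. Gene positions are those of the deposited table, and promoters carry RefSeq's build. The values are FPKM, per the file headers, deposited by the authors as 1 column per library. How strand and overlapping genes were counted is not given in the sources used here.

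FPKM of at least 1 on average kept 12194 genes (20.8%). Log2(FPKM + 1) was fitted with limma 3.58.1 (trend, R 4.3.3) with 1 mean per group over all 12 libraries, and p-values were adjusted by Benjamini-Hochberg over all tested genes at 0.05. Fold changes on this scale understate the change of low genes. Whole reads were recovered from the FPKM (100% whole within 0.05), giving 13211608 to 23819258 per library, and were tested with voom in limma as an added alternative. R2 and first libraries deviated together in all 15 pairs of groups (correlation 0.70 to 0.89, median 0.81), so the fit with the replicate number as a block is given beside results that it changes. With 2 libraries against 2 an exact permutation test cannot go below p = 0.333.

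The members and the gene lists were chosen with earlier results of these data known. Values in every library are given for genes fixed by name and for the 3 highest and 3 lowest in each list and comparison, and from the other lists for called genes at the extremes. Alternatives were the blocks, a pseudocount of 0.1, no filter or an FPKM of at least 5, a common sum, quantile normalization, no mitochondrial genes, voom and leaving out each library. The fits were run on data simulated from the fit with the shared block level, with the same R2 difference in every group. That setting is the block's own, so it cannot show how the fits behave where the R2 difference varies with treatment. Python 3.11.15, pandas 2.3.3, numpy 2.4.6 and matplotlib 3.10.9 were used.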

Additional observations from a re-analysis of the deposited data

Results flagged for a closer look

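RRM1 stood out because it was higher with bortezomib in both control pairs and lower in all 4 pairs of the KO lines. The interaction was -0.673 on the log2 scale. The limma test of that difference did not pass (adjusted p = 0.232 with the replicate block and 1 without it), and the sign in the control line depended on single libraries, as given below.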

How the results depend on the processing

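Where no cause is named below, the cause was not tested. Shares of all genes called under the alternatives are not given, so a changed count cannot be read as particular to these genes. Without the block, the calls of mitotic genes lower after bortezomib (2 in the control line, 1 in KO1, 2 in KO2) became 1, 1 and 1 with a pseudocount of 0.1, 0 in each with a common FPKM sum, 8, 3 and 7 with quantile normalization and 6, 2 and 5 without mitochondrial genes. In KO1 it was 2 with no filter and 2 with an FPKM of at least 5, and quantile normalization called 1 S-phase gene in KO2.

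With a replicate block, in the order block by suffix, block with a shared level, common sum, quantile, voom, no mitochondrial genes and pseudocount 0.1, the S-phase calls after bortezomib were 10, 10, 10, 10, 11, 10 and 10 in the control line, 9, 11, 7, 13, 12, 12 and 11 in KO1 and 8, 9, 8, 10, 9, 10 and 9 in KO2. Mitotic calls were 25 for control and KO2 and 24 for KO1 (25 with quantile) throughout. In the same order, KO1 against control with vehicle gave 1, 1, 1, 2, 3, 2 and 1 S-phase and 1, 2, 2, 3, 3, 2 and 2 mitotic calls, and with bortezomib 4, 4, 3, 5, 4, 4 and 5 S-phase and 0, 3, 3, 5, 5, 4 and 4 mitotic calls. KO2 against control with vehicle gave 1, 0, 0, 0, 1, 0 and 0 mitotic calls, and with bortezomib 0, 0, 0, 1, 1, 1 and 0 S-phase and 1, 0, 0, 0, 2, 0 and 0 mitotic calls. Voom with the block called 1 mitotic gene in the mean interaction, 1 in the KO1 interaction and 1 between KO1 and KO2. The last 2 settings with the block were chosen after seeing the data. Single libraries were left out without a block and with the shared level, but not by suffix. The ranges with the block given below therefore go with the second value of each series above.

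Leaving out 1 library with the block gave 2 to 11, 4 to 12 and 5 to 10 S-phase and 24 to 25, 19 to 24 and 24 to 25 mitotic calls after bortezomib, and 0 to 1, 0 to 1 and 0 to 2 mitotic calls without the block. For KO1 against control it gave 0 to 2 S-phase and 0 to 4 mitotic calls with vehicle, and 1 to 5 and 0 to 4 with bortezomib. For KO2 it gave 0 mitotic calls with vehicle and 0 to 1 of each list with bortezomib. S-phase medians after bortezomib ranged from -1.17 to -0.23, -1.14 to -0.056 and -1.16 to -0.25, and the mitotic median of KO1 from -1.49 to -0.69. Medians of KO1 against control with vehicle ranged from -0.66 to 0.38 (S phase) and -0.62 to 0.22 (mitosis), those of KO2 against control from -0.37 to 0.44 and -0.35 to 0.37, those of KO1 against KO2 from -0.76 to 0.27 and -0.61 to 0.33, and the mitotic KO1 interaction from 0.020 to 0.80. The bortezomib difference of CDC45 in the control line ranged from -0.035 (without control bortezomib R2) to 0.245, and that of RRM1 from -0.124 (without the unnumbered control bortezomib library; -0.020 without control vehicle R2) to 0.610. Single-gene values and counts of called genes in the other lists were compared together, and 700 of them stayed the same. The 157 that moved were all counts in the other lists. Of the single-gene values, 140 were called only under the alternative and 14 only in the reported fit. Another 3 changed sign (1 of CDC45 and 2 of RRM1, given above). Depth limits NUSAP1, PRC1 and CCNE2, which were not tested.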
